A study of Mus musculus with 24 samples.

Results

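Iron and heme handling is described here through 10 genes that break down heme, store iron or move it across membranes: Hmox1, Blvra, Blvrb, Slc40a1, Slc11a1, Slc11a2, Fth1, Ftl1, Tfrc and Hfe. They were chosen by symbol, with earlier results of these data known, and all 10 were found among the 45792 genes in the files. All 10 were also among the 14227 genes tested, those whose log2 value averaged 4 or more across the 12 libraries. Liver macrophages engulf aged red blood cells and open the heme ring with heme oxygenase 1, which frees iron. The iron is then held in ferritin or leaves the cell through ferroportin, the exporter encoded by Slc40a1, while transferrin receptor 1 brings transferrin iron in. Iron regulatory proteins bind a hairpin in the messenger RNA, the iron-responsive element: near the start it holds back translation of ferritin and ferroportin, and in the 3′ end of Tfrc it protects the message from decay.

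RNA was sequenced from liver cells sorted as CD11c+ and MHC class II+, the surface phenotype used for dendritic cells, from female C57BL/6 mice kept for 2 weeks on food lacking methionine and choline, which induces steatohepatitis. Every mouse had also received an intravenous injection of liposomes labelled with the lipophilic dye DiI 24 hours before, and the liposomes were either loaded with curcumin, a plant polyphenol, or empty. The cells were split by dye into DiI-positive cells, which carried liposome label, and DiI-negative cells, which did not. This gave 4 groups of 3 libraries: DiI-positive cells after curcumin liposomes, DiI-positive cells after empty liposomes, DiI-negative cells after curcumin liposomes and DiI-negative cells after empty liposomes. All 4 groups shared the diet and a liposome injection, so no group was untreated. C57BL/6 mice are known to carry a loss-of-function allele of Slc11a1, and transcript levels of that gene do not give its activity. Whether a group's libraries stem from different animals or from pooled ones is not stated in the sources used here, and p-values cover only the variation among these libraries, part of which may be technical.

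The genes of the sorting gate lay well above the testing minimum of 4 in every library. Itgax, which encodes CD11c, lay between 12.01 and 13.48 on the log2 scale, H2-Ab1, a class II chain, between 17.73 and 18.25, and Cd74, the class II invariant chain, between 18.99 and 19.37. On the first principal component, with 34.0% of the variance, DiI-positive libraries scored from 6.51 to 27.7 and DiI-negative libraries from -21.6 to -16.3. On the second, with 13.8%, curcumin DiI-positive libraries 1 and 3 stood apart at -28.5 and 26.2. Levels are the authors' normalized log2 values, and the number of reads behind them is not given by the values. Their transform is not stated, but they have the form of a regularized log, which draws low genes towards their mean. Fold changes may therefore be shrunken, and levels of different genes were not ranked against each other. The summed marker levels below add values of different genes, so the highest genes of a list weigh most.

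Iron-responsive elements, the hairpin for control by iron, were searched for in the annotated untranslated regions with 1 fixed pattern. Hairpins of another form, such as a stem with a further unpaired base, would be missed. The search took a C, a stem of 5 bases, the loop CAGTGN and 5 bases pairing with the stem (G-T pairs allowed), on the transcript strand. Of the 10 genes, 4 held a match, against 160 of 21901 protein-coding genes (0.731%), and 31 genes (0.142%) held one in a 5′ untranslated region. A match describes the letters only, and the absence of one says only that these letters are not in the annotated region. Each sequence is printed 5′ to 3′ on the transcript strand from the GENCODE M21 transcripts (GRCm38), with 6 further bases on each side and the loop in capitals. The 5′ untranslated regions of Fth1 (chr19:9982732-9982760, plus strand), Ftl1 (chr7:45459779-45459807, minus strand) and Slc40a1 (chr1:45925465-45925493, minus strand) held 1 match each, and the 3′ untranslated region of Tfrc held 4 on the plus strand, at chr16:32631219-32631247, chr16:32631598-32631626, chr16:32631663-32631691 and chr16:32631710-32631738, listed in that order.
Fth1: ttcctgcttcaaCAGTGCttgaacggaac
Ftl1: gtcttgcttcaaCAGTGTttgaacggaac
Slc40a1: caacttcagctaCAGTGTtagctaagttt
Tfrc site a: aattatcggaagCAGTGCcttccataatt
Tfrc site b: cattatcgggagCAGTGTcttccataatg
Tfrc site c: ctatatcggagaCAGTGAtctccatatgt
Tfrc site d: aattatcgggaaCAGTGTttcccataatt

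Setting DiI-positive against DiI-negative cells compares cells from the same CD11c+ and MHC class II+ gate that carried liposome label with those that did not. The 2 sides also differed in markers of several cell types, given below. Of the 10 genes, 6 were higher in DiI-positive cells over both liposomes and none was lower: the exporter Slc40a1, the heme enzymes Hmox1 and Blvrb, the phagosomal metal transporter Slc11a1, the ferritin heavy chain Fth1 and Hfe. Among all genes tested, 12.1% passed the same threshold in that comparison and 5.54% passed it as higher. The 10 genes were chosen with earlier results of these data known, so their count is a description only. Slc40a1 carried the largest difference of the 10 (5.58-fold), Blvrb followed (2.02-fold), and Blvra, Slc11a2, Ftl1 and Tfrc did not pass. Within a single liposome, Slc40a1 and Blvrb passed as higher under curcumin liposomes, where 3.07% of all genes passed (1.41% as higher), and under empty liposomes, where 2.95% did (1.32% as higher). The median log2 fold change of the 10 genes was 0.37 over both liposomes, 0.44 under curcumin and 0.35 under empty liposomes, beside medians over all genes tested of 0.0050 over both, -0.0028 under curcumin and 0.0038 under empty liposomes.

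**Figure D1:**
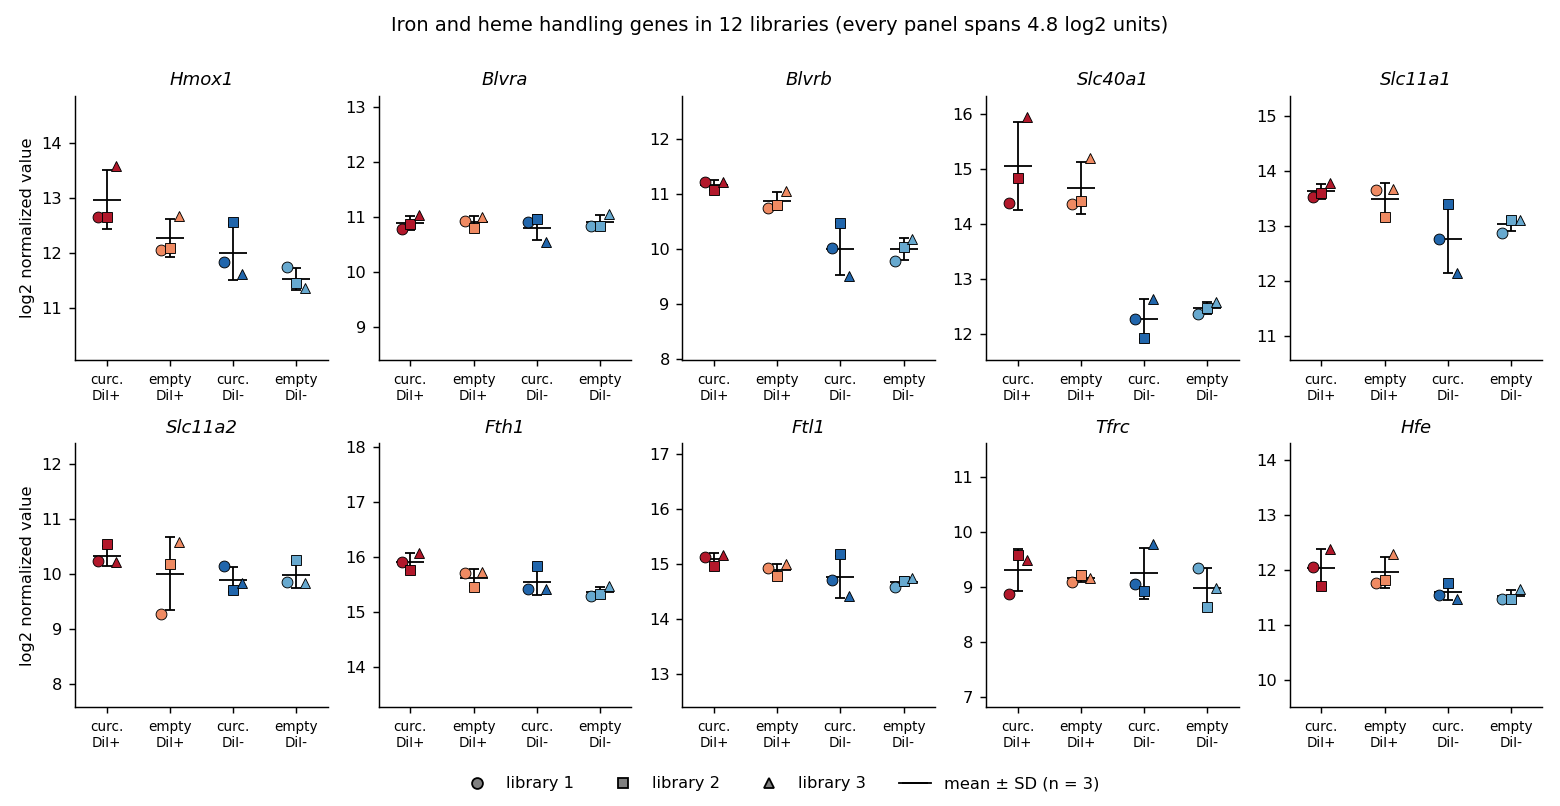
Log2 normalized value (vertical axis, every panel spanning 4.8 units) of each gene in the 4 groups of 3 libraries (horizontal axis), with circles, squares and triangles for libraries 1, 2 and 3 and bars for mean ± SD. The 6 DiI-positive libraries sit above all 6 DiI-negative libraries for Slc40a1 and Blvrb, and the groups overlap for Blvra and Tfrc.

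Slc40a1 encodes ferroportin, through which macrophages return recycled iron to the blood (ENSMUSG00000025993, chr1:45908068-45926523, minus strand). Its log2 values were 14.37, 14.84 and 15.94 in DiI-positive cells after curcumin liposomes and 14.35, 14.41 and 15.19 in DiI-positive cells after empty liposomes, against 12.26, 11.92 and 12.64 in DiI-negative cells after curcumin liposomes and 12.35, 12.47 and 12.58 in DiI-negative cells after empty liposomes. Every DiI-positive library lay above every DiI-negative library, and library 3 was the highest in both DiI-positive groups. The difference between gates was 2.78 ± 0.35 (log2 fold change ± SE, limma adjusted p = 0.0044) under curcumin liposomes, a 6.85-fold difference, and 2.19 ± 0.35 (limma adjusted p = 0.0102) under empty liposomes, a 4.55-fold difference. Over both it was 2.48 ± 0.25, with a 95% interval of 1.94 to 3.02 (limma adjusted p = 0.00027), and this ranked 12 among 14227 genes from the highest. Leaving out any 1 library gave 2.26 to 2.65 over both liposomes and kept the call. Under empty liposomes the call was lost without empty DiI-negative library 1 (2.13, limma adjusted p = 0.0509), and under curcumin liposomes when only those 6 libraries were fitted (limma adjusted p = 0.0511). The groups whose means were next to each other overlapped within each gate, where curcumin DiI-positive libraries averaged 15.05 ± 0.80 and empty DiI-positive libraries 14.65 ± 0.47 (SD, n = 3 each).

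In heme breakdown, Hmox1 and Hmox2 open heme to biliverdin, which the biliverdin reductase Blvra reduces to bilirubin. Blvrb encodes the other enzyme named biliverdin reductase, and its activity on this biliverdin was not measured. Blvrb (ENSMUSG00000040466, chr7:27447978-27466144, plus strand) stood at 11.22, 11.06 and 11.21 in curcumin DiI-positive libraries and 10.74, 10.80 and 11.05 in empty DiI-positive libraries, against 10.01, 10.47 and 9.51 in curcumin DiI-negative libraries and 9.78, 10.03 and 10.18 in empty DiI-negative libraries. All 6 DiI-positive libraries were above all 6 DiI-negative ones, the same separation as for Slc40a1, which 2.52% of all genes tested showed in that direction. Blvrb was higher in DiI-positive cells by 1.17 ± 0.20 under curcumin liposomes (limma adjusted p = 0.0143), by 0.87 ± 0.20 under empty liposomes (limma adjusted p = 0.0455) and by 1.02 ± 0.14 over both (limma adjusted p = 0.0015). The value over both liposomes passed under every one of the 19 alternatives. Under curcumin liposomes the call was lost without curcumin DiI-negative library 1 (1.17, limma adjusted p = 0.0576) and with only the 6 libraries compared (1.17, limma adjusted p = 0.104). Under empty liposomes it stood close to the threshold: it passed in 8 of 20 alternatives, and of the 12 fits that each left out 1 library it passed only without curcumin DiI-positive library 3, curcumin DiI-negative library 2 or curcumin DiI-negative library 3. In the other fits limma adjusted p ran up to 0.171, and log2 fold changes over all 12 ran from 0.76 to 0.96.

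Hmox1, the heme oxygenase induced by heme and oxidative stress (ENSMUSG00000005413, chr8:75093621-75100589, plus strand), had values of 12.67, 12.67 and 13.59 in curcumin DiI-positive libraries and 12.06, 12.10 and 12.69 in empty DiI-positive libraries, against 11.84, 12.58 and 11.63 in curcumin DiI-negative libraries and 11.76, 11.47 and 11.38 in empty DiI-negative libraries. Within each liposome the DiI-positive libraries were all above the DiI-negative ones, but over both liposomes curcumin DiI-negative library 2 lay above 2 of the empty DiI-positive libraries. Hmox1 was 1.81-fold higher over both liposomes (0.85 ± 0.21, limma adjusted p = 0.0209). The call was lost without curcumin DiI-negative library 1 (0.81, limma adjusted p = 0.0532) or empty DiI-negative library 2 (0.84, limma adjusted p = 0.0502). Within curcumin liposomes the difference was 0.96 ± 0.29 and within empty liposomes 0.75 ± 0.29, and neither passed (limma adjusted p = 0.101 and limma adjusted p = 0.202).

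Blvra, the other reductase (ENSMUSG00000001999, chr2:127070665-127097084, plus strand), varied by 0.50 on the log2 scale over all 12 libraries, the narrowest range of the 10 genes. It averaged 10.90 ± 0.13 in curcumin and 10.91 ± 0.10 in empty DiI-positive libraries, against 10.81 ± 0.22 in curcumin and 10.91 ± 0.12 in empty DiI-negative libraries (SD, n = 3 each). The groups overlapped, and the difference over both liposomes was 0.045, with a 95% interval of -0.15 to 0.24 (limma adjusted p = 0.801). Hmox2, the constitutive heme oxygenase, was 0.22 higher and did not pass (limma adjusted p = 0.219).

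**Figure D2:**
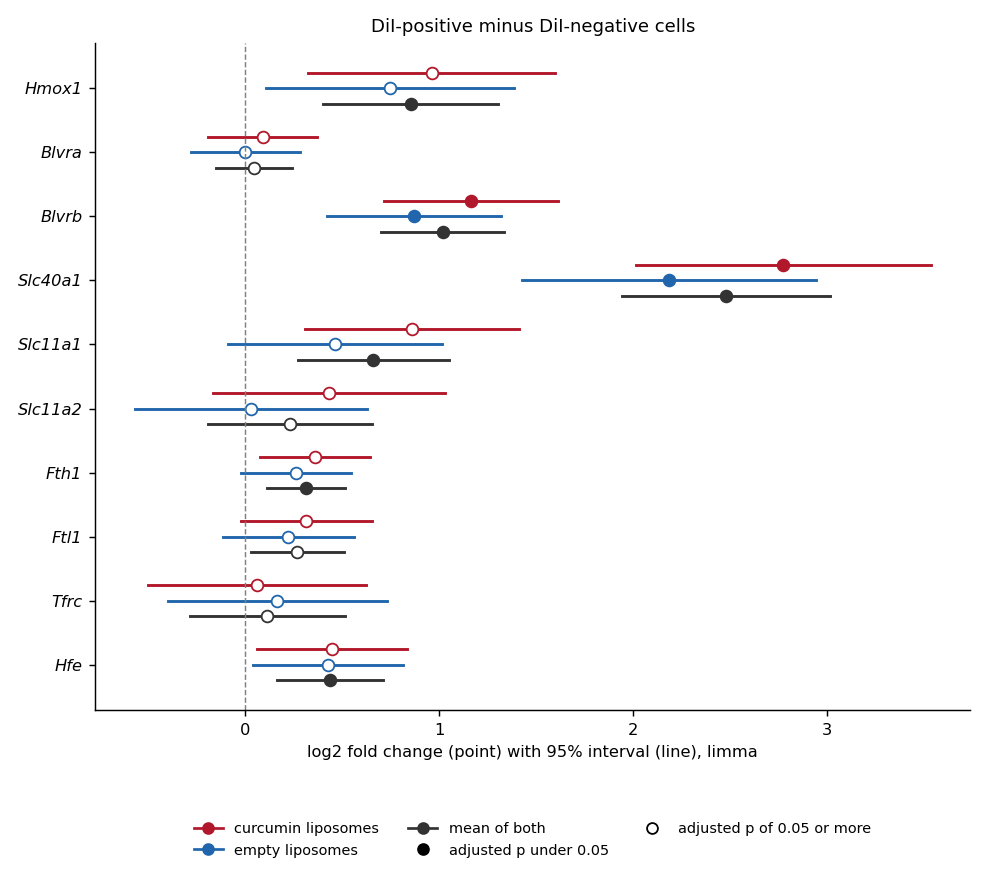
Log2 fold change of DiI-positive over DiI-negative cells (horizontal axis, point) with its 95% interval (line) for each gene, under curcumin liposomes, under empty liposomes and for the mean of both; filled points have a limma adjusted p under 0.05. Slc40a1 lies farthest to the right at 2.48 for the mean of both, and Blvra lies at 0.045.

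Of the metal transporters of the Nramp family, Slc11a1 (ENSMUSG00000026177, chr1:74375195-74386062, plus strand) moves metal ions out of phagosomes and Slc11a2 (ENSMUSG00000023030, chr15:100387898-100425072, minus strand) moves iron out of endosomes. Slc11a1 had 13.52, 13.60 and 13.78 in curcumin DiI-positive libraries and 13.66, 13.16 and 13.67 in empty DiI-positive libraries, against 12.76, 13.41 and 12.15 in curcumin DiI-negative libraries and 12.88, 13.11 and 13.11 in empty DiI-negative libraries. Within each liposome the gates did not overlap, and over both curcumin DiI-negative library 2 reached into the DiI-positive range. The difference over both liposomes was 0.66 ± 0.18 (limma adjusted p = 0.0335). It passed in 8 of 19 alternatives. With 1 library left out, it passed only without curcumin DiI-positive library 1, empty DiI-positive library 2 or curcumin DiI-negative library 2 or 3. Log2 fold changes over all 12 of these fits were 0.51 to 0.82. Under curcumin liposomes the difference was 0.86 ± 0.25 and did not pass (limma adjusted p = 0.0919), except without curcumin DiI-negative library 2 (1.17, limma adjusted p = 0.0226). Slc11a2 had 10.24, 10.54 and 10.21 in curcumin and 9.27, 10.17 and 10.58 in empty DiI-positive libraries, against 10.14, 9.71 and 9.83 in curcumin and 9.86, 10.25 and 9.83 in empty DiI-negative libraries. Its empty DiI-positive libraries spread over more than 1 log2 unit and spanned the other groups' means, and the difference over both liposomes was 0.23 ± 0.19 (limma adjusted p = 0.491). Slc11a2 overlaps Gm5475 on the opposite strand (mean log2 value 5.60). The library preparation did not mark strand, so strand could not separate reads of the 2 genes there, and they may be mixed.

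Ferritin is a shell of heavy and light chains, encoded by Fth1 (ENSMUSG00000024661, chr19:9980598-9985098, plus strand), which oxidizes incoming iron, and Ftl1 (ENSMUSG00000050708, chr7:45457944-45459884, minus strand), which helps form the mineral core. Both transcripts carry the hairpin in the 5′ untranslated region printed above. Fth1 had 15.92, 15.76 and 16.06 in curcumin DiI-positive libraries and 15.71, 15.45 and 15.72 in empty DiI-positive libraries, against 15.41, 15.83 and 15.41 in curcumin DiI-negative libraries and 15.28, 15.33 and 15.47 in empty DiI-negative libraries. Curcumin DiI-negative library 2 was above all 3 empty DiI-positive libraries, and empty DiI-positive library 2 was below the highest empty DiI-negative library. Fth1 was 1.24-fold higher over both liposomes (0.31 ± 0.09, limma adjusted p = 0.0472). It passed in 6 of 19 alternatives. With 1 library left out, it passed only without curcumin DiI-positive library 2, empty DiI-positive library 2 or curcumin DiI-negative library 2. Log2 fold changes over all 12 of these fits were 0.27 to 0.38.

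Ftl1 had 15.13, 14.95 and 15.15 in curcumin DiI-positive libraries and 14.91, 14.77 and 14.99 in empty DiI-positive libraries, against 14.70, 15.17 and 14.42 in curcumin DiI-negative libraries and 14.58, 14.68 and 14.74 in empty DiI-negative libraries. The gates did not overlap under empty liposomes, and curcumin DiI-negative library 2 was the highest of all 12. The difference over both was 0.27 ± 0.11 and did not pass (limma adjusted p = 0.138), except without curcumin DiI-negative library 2 (0.37, limma adjusted p = 0.0133). The Ftl1 values are uncertain because 5 annotated copies share at least 95% of their bases with its coding sequence over at least 50% of its length, and all 5 had values high enough to be tested. Of these, Ftl1-ps1 (0.50 ± 0.10, limma adjusted p = 0.0093) and Ftl2-ps (0.52 ± 0.11, limma adjusted p = 0.0132) were higher in DiI-positive cells, and Ftl1-ps2, Gm12164 and Gm15590 did not pass. No copy at that identity was found for the other 9 genes.

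Tfrc (ENSMUSG00000022797, chr16:32608920-32632794, plus strand) encodes transferrin receptor 1, whose 4 matched hairpins lie in the 3′ untranslated region, and Hfe (ENSMUSG00000006611, chr13:23702034-23710854, minus strand) encodes a protein related to MHC class I that binds this receptor and is mutated in human hereditary hemochromatosis. Tfrc had 8.87, 9.59 and 9.49 in curcumin and 9.09, 9.23 and 9.16 in empty DiI-positive libraries, against 9.05, 8.93 and 9.79 in curcumin and 9.35, 8.64 and 8.99 in empty DiI-negative libraries. All groups overlapped with their neighbours in level, and the difference over both liposomes was 0.11 ± 0.18, with a 95% interval of -0.29 to 0.51 (limma adjusted p = 0.743). Hfe had 12.04, 11.70 and 12.37 in curcumin DiI-positive libraries and 11.76, 11.82 and 12.28 in empty DiI-positive libraries, against 11.53, 11.76 and 11.47 in curcumin DiI-negative libraries and 11.46, 11.46 and 11.65 in empty DiI-negative libraries. Library 3 was the highest of both DiI-positive groups, and curcumin DiI-negative library 2 lay within the DiI-positive range. Hfe was 1.35-fold higher over both liposomes (0.44 ± 0.13, limma adjusted p = 0.0429), with 0.45 ± 0.18 under curcumin and 0.43 ± 0.18 under empty liposomes (limma adjusted p = 0.204 and limma adjusted p = 0.231). The value over both passed in 7 of 19 alternatives. With 1 library left out, it passed only without curcumin DiI-positive library 2, empty DiI-positive library 1 or curcumin DiI-negative library 2. Log2 fold changes over all 12 of these fits were 0.35 to 0.52.

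Libraries of the 2 gates did not overlap for 5 of the 10 genes under curcumin liposomes (Slc40a1, Blvrb, Hmox1, Slc11a1 and Slc11a2) and for 6 under empty liposomes (Slc40a1, Blvrb, Hmox1, Slc11a1, Ftl1 and Hfe), always with DiI-positive libraries above. Of all genes tested, 9.88% were separated that way under curcumin and 12.3% under empty liposomes. Over both liposomes the number of the 10 genes past the adjusted threshold was 6 in all 12 libraries, beside 1722 of all genes tested. It was 7 without curcumin DiI-negative library 2 (1394 of all genes). It was 2 without curcumin DiI-negative library 1 (1189) or empty DiI-negative library 2 (1153). It was 3 without curcumin DiI-positive library 3 (2244), empty DiI-positive library 3 (1455), empty DiI-negative library 1 (1149) or empty DiI-negative library 3 (1314). In the remaining fits it was 4 or 5, beside 1247 to 1548 of all genes.

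Marker genes of several cell types differed between the gates as well, and in bulk RNA fewer cells of a type and less RNA per cell cannot be told apart. Of all 14227 genes tested, 788 passed as higher in DiI-positive cells over both liposomes and 934 as lower. Of 14 genes listed for Kupffer cells, the resident liver macrophages known for iron recycling, 12 were higher in DiI-positive cells over both liposomes and none was at 0. Their summed level on the log2 scale was 17.42, 17.63 and 17.84 in curcumin and 17.09, 17.20 and 17.89 in empty DiI-positive libraries, against 16.58, 16.98 and 16.16 in curcumin and 16.57, 16.74 and 16.86 in empty DiI-negative libraries, so the gates did not overlap. Clec4f, a Kupffer cell lectin, was 4.52 ± 0.40 higher (limma adjusted p = 0.00015). Among the DiI-negative libraries, curcumin library 2 had the highest Kupffer sum and curcumin library 3 the lowest, and the same 2 libraries were the highest and the lowest of that gate for Blvrb, Slc11a1 and Ftl1. The order was the reverse for Slc40a1, where curcumin library 2 was the lowest of all 12 libraries (11.92) and curcumin library 3 the highest of the DiI-negative gate (12.64). Clec4f was also highest of that gate in curcumin library 3 (10.45), against 9.16 in curcumin library 2. All 10 B cell markers were higher (sums of 16.49 to 17.64 against 15.84 to 16.36), 8 of 10 natural killer and T cell markers were lower (11.96 to 12.70 against 13.51 to 14.11), and 7 of 9 monocyte markers were lower (15.75 to 15.92 against 16.05 to 16.73), each given for DiI-positive against DiI-negative libraries. The part of these cell types in the iron and heme results was not tested.

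Transcripts of red blood cell precursors, a source of heme genes, were also present. Of 10 erythroid markers listed, 9 were summed and 5 could be tested, and 1 passed, Alas2, the erythroid enzyme that starts heme synthesis (0.92 higher in DiI-positive cells, limma adjusted p = 0.0172). Under curcumin liposomes the erythroid sums were 11.70 to 11.74 in DiI-positive and 10.59 to 11.37 in DiI-negative libraries and did not overlap, and all 5 tested markers lay higher in every DiI-positive library. Under empty liposomes the sums were 11.19 to 11.90 in DiI-positive and 10.75 to 11.49 in DiI-negative libraries and overlapped. Of 10 hepatocyte markers 8 could be tested and 1 passed as higher, with sums of 9.46 to 10.75 in DiI-positive and 9.12 to 9.87 in DiI-negative libraries. Of 10 sinusoidal endothelial markers 1 passed as higher, and the sums were 12.06 to 14.02 in DiI-positive and 11.96 to 12.40 in DiI-negative libraries, with the value of 14.02 in curcumin DiI-positive library 3. That library was also the highest of all 12 for Hmox1, Slc40a1, Slc11a1, Fth1 and Hfe. Over both liposomes 20% of the tested erythroid, 12.5% of the hepatocyte and 10% of the endothelial markers passed, beside 12.1% of all genes. Each of these shares is 1 gene. The part of these cell types was not tested. The dendritic cell markers were lower more often than higher in DiI-positive cells, with 4 of 8 cDC2 markers lower and 1 higher, and 1 of 8 cDC1 markers each way, and of 7 neutrophil markers tested, with a median of -0.53, none passed (smallest limma adjusted p = 0.0722).

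A wider list of 65 other iron and heme genes, of which 53 could be tested, was set beside the 10. Over both liposomes DiI-positive cells had 3 of them higher and 3 lower, which is 11.3% of those tested, close to the 12.1% of all genes, so the count does not set the wider list apart. Its median log2 fold change was 0.044, and the 6 genes are given as single genes only. The 3 higher ones were Spic, a transcription factor of iron-recycling macrophages that is induced by heme, Hpx, the heme-binding protein hemopexin, and Mcoln1, a lysosomal channel that can pass iron. Spic had a lowest, median and highest value of 10.24, 10.58 and 11.13 in the 6 DiI-positive libraries and 9.44, 9.70 and 9.88 in the 6 DiI-negative libraries, with no overlap (0.94 ± 0.15, limma adjusted p = 0.0024). Hpx had 6.48, 6.87 and 7.07 in DiI-positive and 6.10, 6.26 and 6.31 in DiI-negative libraries, also with no overlap (0.58 ± 0.11, limma adjusted p = 0.0049). Mcoln1 had 10.85, 11.32 and 11.42 in DiI-positive and 10.67, 10.77 and 11.06 in DiI-negative libraries, which overlapped (0.40 ± 0.10, limma adjusted p = 0.0295). Within 1 liposome, Spic passed under curcumin (1.04, limma adjusted p = 0.0244) and Hpx under empty liposomes (0.66, limma adjusted p = 0.0386).

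The 3 lower genes were Cpox, an enzyme late in heme synthesis, Pcbp1, a chaperone that delivers iron to ferritin, and Glrx5, a mitochondrial protein of iron-sulfur cluster transfer. Cpox had a lowest, median and highest value of 7.49, 7.91 and 8.03 in DiI-positive and 7.93, 8.14 and 8.56 in DiI-negative libraries (fell by 0.34, limma adjusted p = 0.0453). Pcbp1 had 10.12, 10.38 and 10.59 in DiI-positive and 10.54, 10.64 and 10.88 in DiI-negative libraries (fell by 0.27, limma adjusted p = 0.0365). Glrx5 had 8.69, 8.84 and 9.13 in DiI-positive and 9.03, 9.29 and 9.45 in DiI-negative libraries (fell by 0.41, limma adjusted p = 0.0227). The gates overlapped for each of the 3.

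By role, 1 of 9 tested genes of heme transport and scavenging passed as higher, with a median of 0.25, and 1 of 11 genes of heme synthesis passed as lower, with a median of 0.073. In the roles with 8 or more tested genes, 9.09% to 12.5% passed, beside 12.1% of all genes. These counts do not set those roles apart. Heme uptake by macrophages is known to use the hemoglobin scavenger receptor Cd163 (0.37, limma adjusted p = 0.633) and the lysosomal heme transporter Slc48a1 (0.27, limma adjusted p = 0.0501), and neither passed. Of 8 genes of iron uptake and reduction 1 passed as higher, with a median of -0.16, and of 9 genes of iron sensing and regulation 1 passed as higher, with a median of -0.0063. The iron regulatory proteins are encoded by Aco1 and Ireb2, and their differences of 0.28 and 0.19 did not pass (limma adjusted p = 0.105 and limma adjusted p = 0.423). Bach1, the heme-sensing repressor of Hmox1, was at -0.47 and Nfe2l2, which encodes its activator NRF2, at 0.057 (limma adjusted p = 0.134 and limma adjusted p = 0.779). Of 3 tested genes of storage and ferritin turnover 1 passed as lower, and of 11 mitochondrial genes 1 passed as lower. Ncoa4, the receptor that carries ferritin to its breakdown, was at 0.0042 and did not pass (limma adjusted p = 0.991).

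**Figure D3:**
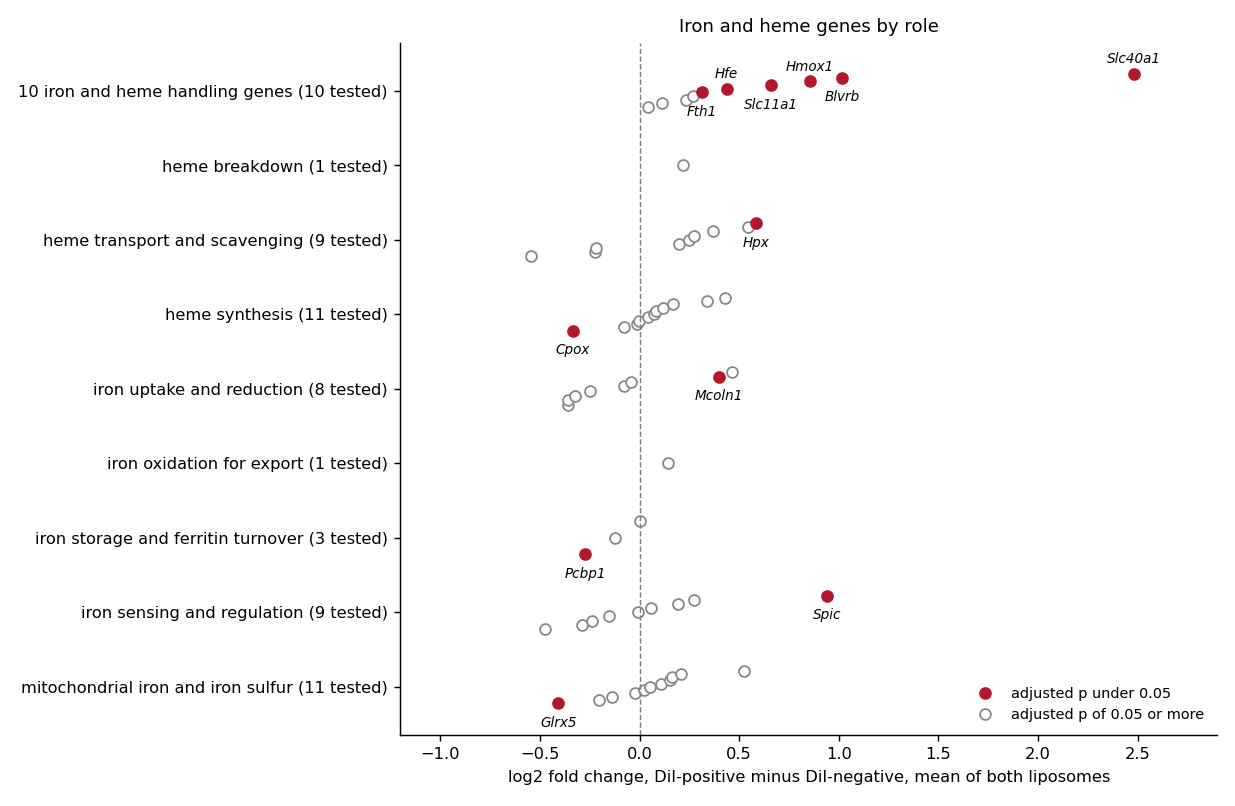
Log2 fold change of DiI-positive over DiI-negative cells, mean of both liposomes (horizontal axis), for each tested gene (point) of the 10 and of the wider list by role (rows, with the number tested); points within a row are spread vertically for legibility. Filled and named points have a limma adjusted p under 0.05, and 6 of them lie in the top row, all above 0.

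Setting curcumin against empty liposomes shows whether the cargo went with a difference in labelled cells or in their unlabelled neighbours. Curcumin is known from cultured cells as an inducer of Hmox1. None of the 10 genes passed the adjusted threshold in DiI-positive cells, in DiI-negative cells or over both gates, and neither did any other gene (0% of 14227 in each, limma). At an unadjusted p under 0.05 there were 1165 genes in DiI-positive cells, 469 in DiI-negative cells and 1119 over both. Hmox1 was 0.70 ± 0.29 higher after curcumin liposomes in DiI-positive cells, with a 95% interval of 0.057 to 1.33 (limma unadjusted p = 0.0353, adjusted p = 0.576). The highest empty DiI-positive library, at 12.69, lay just above curcumin libraries 1 and 2, both at 12.67, and curcumin library 3, at 13.59, stood apart. Without that library the difference was 0.39 (limma adjusted p = 0.831).

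In DiI-negative cells Hmox1 differed by 0.48, with a 95% interval of -0.16 to 1.12 (limma adjusted p = 1.0). Over both gates it averaged 12.50 ± 0.70 in curcumin and 11.91 ± 0.48 in empty libraries (SD, n = 6 each), a difference of 0.59 ± 0.21 with an interval of 0.14 to 1.04 (limma unadjusted p = 0.0151, adjusted p = 0.592), and ranked 65 among 14227 genes from the highest. These misses of the threshold do not show that Hmox1 was alike in the 2 groups, since the intervals reach to more than a log2 difference of 1.

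Fth1 was 0.28 ± 0.13 higher after curcumin liposomes in DiI-positive cells, with curcumin libraries at 15.92, 15.76 and 16.06 and empty libraries at 15.71, 15.45 and 15.72, which did not overlap (limma unadjusted p = 0.0490, adjusted p = 0.610). Blvrb likewise did not overlap there, with curcumin libraries from 11.06 to 11.22 and empty libraries from 10.74 to 11.05 (0.30 ± 0.20, limma adjusted p = 0.736). Such separation, with curcumin higher, was seen for 4.93% of all genes tested in DiI-positive cells. It was seen for none of the 10 genes in DiI-negative cells, beside 5.73% of all genes, nor over both gates, beside 0.162%. Over both gates Fth1 differed by 0.24 ± 0.09 (limma unadjusted p = 0.0246, adjusted p = 0.616).

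Slc40a1 differed by 0.40 between curcumin and empty liposomes in DiI-positive cells, with an interval of -0.36 to 1.16, and by -0.19 in DiI-negative cells, with an interval of -0.95 to 0.57. Without curcumin DiI-positive library 3, the library with the highest Slc40a1 value, the first of these was -0.045. The remaining 6 genes, Blvra, Slc11a1, Slc11a2, Ftl1, Tfrc and Hfe, differed by -0.012 to 0.32 in DiI-positive cells and by -0.26 to 0.26 in DiI-negative cells, with limma adjusted p of 0.775 or more. The median over the 10 genes was 0.24 in DiI-positive cells, 0.032 in DiI-negative cells and 0.13 over both, beside 0.00033, 8.9e-05 and -0.0014 over all genes tested.

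**Figure D4:**
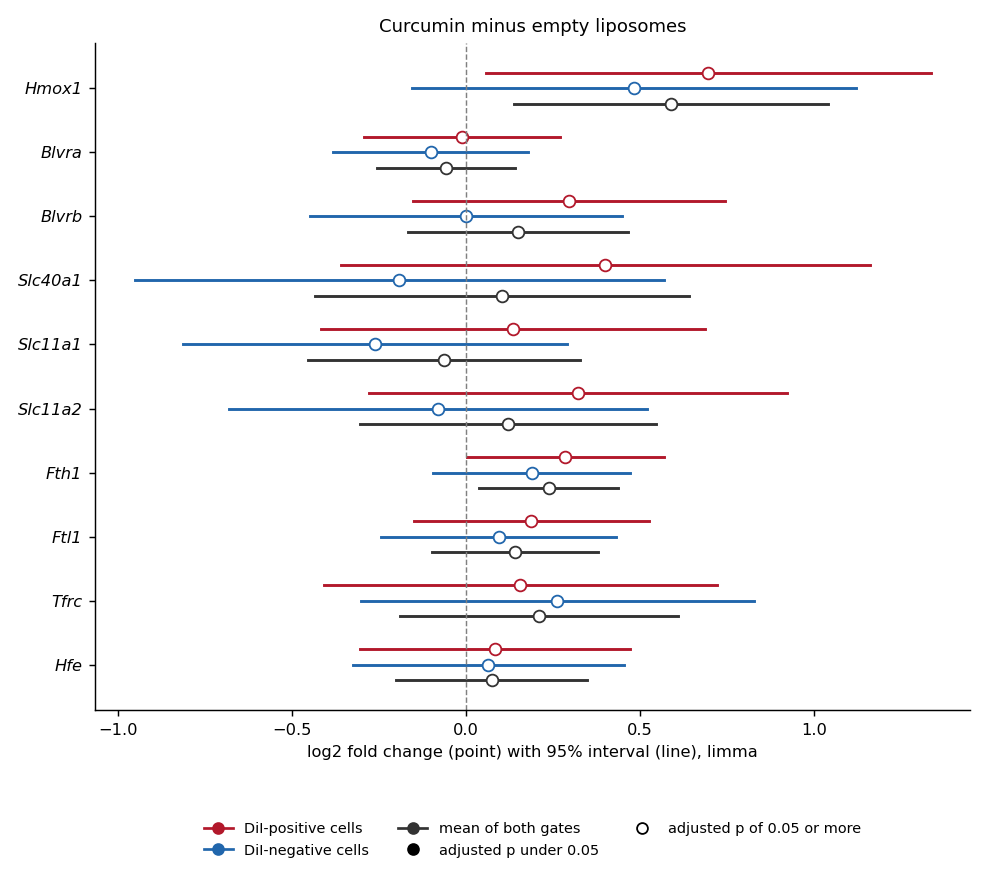
Log2 fold change of curcumin over empty liposomes (horizontal axis, point) with its 95% interval (line) for each gene, in DiI-positive cells, in DiI-negative cells and for the mean of both gates. No point is filled, since none had a limma adjusted p under 0.05, and Hmox1 lies farthest to the right at 0.59 for the mean of both.

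The difference between the gates was also compared between the 2 liposomes as an interaction. It was not called for any of the 10 genes or any other gene (0% of 14227, 527 at an unadjusted p under 0.05, limma). For Slc40a1 the gate difference was 0.59 ± 0.49 larger with curcumin, with an interval of -0.48 to 1.67 (limma adjusted p = 0.999), and for Hmox1 0.21 ± 0.41, with an interval of -0.69 to 1.12. For Blvrb it was 0.30 ± 0.29, and for the other 7 genes it lay between -0.11 and 0.40.

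The order of the 4 groups showed the same gate split for the genes that passed. For Hmox1, Blvrb and Fth1 the group means ran, from low to high, through empty DiI-negative, curcumin DiI-negative, empty DiI-positive and curcumin DiI-positive libraries, and so did those of Ftl1 and Hfe. For Slc40a1, Slc11a1 and Slc11a2 the 2 DiI-negative groups were in the opposite order, and they overlapped in each case. Neighbouring groups overlapped at every step for Hmox1, Ftl1, Slc11a2, Tfrc and Blvra. Mean Hmox1 values were 12.98 ± 0.53 in curcumin and 12.28 ± 0.35 in empty DiI-positive libraries, against 12.02 ± 0.50 in curcumin and 11.53 ± 0.20 in empty DiI-negative libraries (SD, n = 3 each).

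Across the 12 libraries, Fth1 and Ftl1 varied together (Pearson r = 0.91), as did Hmox1 and Fth1 (r = 0.90) and Blvrb and Slc11a1 (r = 0.90). Tfrc and Slc11a2 varied most apart from the rest. For Tfrc r ran from -0.36 with Blvra to 0.31 with Slc40a1, and for Slc11a2 from 0.045 with Blvra to 0.43 with Slc40a1. These values are descriptions over libraries that share 2 gates and 2 liposomes, and the split of the gates enters every one of them. Among 11488 protein-coding genes, those with the values most like Slc40a1 were Cd5l, Il18bp, Clec1b, Vcam1 and Pltp (r from 0.96 to 0.97), of which Cd5l and Clec1b are on the Kupffer cell list. Those most like Blvrb were Loxl3, Apoe, Lgmn, Pld3 and Acp5 (0.97 to 0.98). Hmox1 was most like Acer2, Creg1, Fabp7, Gpx7 and mt-Nd3 (0.89 to 0.92), and Fth1 most like Bcl2a1a, Acer2, Prdx1, Alas1 and Creg1 (0.92 to 0.94). Slc11a1 was most like Pilra, Axl, Adap2, Cd63 and Ftl1-ps1 (0.95 to 0.98), and Hfe most like Man2a1, Actn1, Cd300ld, Tmem26 and Sorbs3 (0.92 to 0.95).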

How the data were processed

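Per the labels' protocols, SMARTer low-input amplification was followed by Nextera XT library preparation, which does not mark strand. The deposited files hold 1 log2 value per gene and library, normalized by the authors, for 12 library codes, each listed as 2 records in the labels and counted as 1 library. The submitters' processing notes name STAR 2.4.0d, DESeq2 1.8.1 and GRCm38. How reads were counted, on which annotation, and how the values were transformed is not given in the sources used here, and depth is unknown. The log2 values made by the authors have the form of a regularized log, and 20918 of 45792 genes were at 0 in all libraries.

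Symbols and coordinates came from GENCODE M21. Genes whose log2 value averaged 4 or more were fitted with limma 3.58.1 in R 4.3.3, with all 12 libraries, 4 group means, no covariate and a prior variance following the mean. Tests were two-sided, with Benjamini-Hochberg adjustment over 14227 genes, and a gene passed at an adjusted p under 0.05. Of 7 comparisons, 3 set gates against each other, 3 set liposomes, and 1 was the interaction. The fit was tested on simulated data. The wider iron list and 10 cell marker lists were described by counts and medians. All 10 genes and every passing gene of the wider list were named. A few more of that list were named after their values were seen. Also named were the 5 protein-coding genes outside the 10 most correlated with each passing gene. The genes and lists were chosen with earlier results of these data known. Same-numbered libraries were not treated as pairs. Alternatives changed the filter, the scaling, the block, the variance prior and the libraries, 1 at a time. Matplotlib 3.10.9 drew the figures.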

Additional observations from a re-analysis of the deposited data

How the results depend on the processing

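Depth is not given, so the spread of 3 libraries a group sets the precision. Slc40a1 and Blvrb, over both liposomes, passed under every one of the 19 alternatives run. Hmox1 passed in 17 of them, Slc11a1 in 8, Hfe in 7 and Fth1 in 6. Under empty liposomes the 419 genes and 2 iron genes called became 263 genes and 1 iron gene with no filter on low values, and 1 iron gene with no trend in the variance prior. Under curcumin liposomes the 437 genes became 248 with no filter, and 40 genes with 0 iron genes when only those 6 libraries were fitted. Over both liposomes the 1722 genes and 6 iron genes called became 1247 genes and 3 iron genes with no filter. Leaving out both curcumin libraries numbered 3, chosen after seeing the data, gave 666 genes under empty, 706 under curcumin and 1915 over both liposomes. The iron genes among them numbered 2, 2 and 3. That fit also gave 3 genes for cargo in DiI-positive cells, 1 over both gates and 1 for the interaction. Leaving out 1 library at a time gave 85 to 659 genes and 0 to 2 iron genes under empty liposomes. Under curcumin liposomes it gave 114 to 1088 genes and 1 to 4 iron genes, and over both 1149 to 2244 genes and 2 to 7 iron genes. It gave 0 to 4 genes for cargo in DiI-positive cells, 0 to 2 over both gates and 0 to 2 for the interaction. The same-numbered libraries deviated together (r over 0.1) in 2 of 18 pairs, with r from -0.11 to 0.33. The numbers were not used as pairs. This count cannot show that the gates were unpaired, since the 18 include pairs from different liposomes. For the 6 same-numbered gate pairs within 1 liposome r was 0.0037 to 0.33, and for the different-numbered ones it was -0.24 to 0.20. A pairing of the gates within 1 liposome was not fitted, so the gate p-values treat the gates as independent. Whether same-numbered libraries share an animal is not stated. A block by replicate number joins curcumin and empty libraries of the same number. With that block, 405, 407 and 1616 genes and 1, 2 and 4 iron genes passed under empty, curcumin and both liposomes. The block ended the calls of Blvrb under empty liposomes (limma adjusted p = 0.0678) and of Slc11a1 (limma adjusted p = 0.0540) and Fth1 (limma adjusted p = 0.0709) over both.

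None of the values that changed sign had passed the test, and the cause was not tested. Blvra under empty liposomes was 0.015 with median centring, and Blvrb for cargo in DiI-negative cells -0.0015 with quantile normalization. Without both curcumin libraries numbered 3, Blvra was -0.11 under curcumin liposomes, -0.053 over both, 0.026 for cargo in DiI-negative cells and -0.11 for the interaction. Slc40a1 was -0.045 for cargo in DiI-positive cells and -0.21 over both gates, Slc11a1 0.050 in DiI-negative cells and 0.055 over both gates, Hfe -0.083 in DiI-positive cells and Tfrc -0.0057 in DiI-negative cells. The interaction was then -0.20 for Hfe, 0.076 for Tfrc, -0.29 for Hmox1, -0.049 for Fth1 and -0.12 for Ftl1.

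With 1 library left out at a time, gate differences that changed sign ran from -0.043 to 0.070 for Blvra, -0.26 to 0.40 for Slc11a2 and -0.0090 to 0.34 for Tfrc under empty liposomes. They ran from -0.038 to 0.16 for Blvra and -0.10 to 0.33 for Tfrc under curcumin liposomes, and from -0.019 to 0.082 for Blvra over both. Cargo differences in DiI-positive cells ran from -0.081 to 0.045 for Blvra, -0.083 to 0.25 for Hfe, -0.035 to 0.22 for Slc11a1, -0.047 to 0.61 for Slc11a2 and -0.045 to 0.74 for Slc40a1. In DiI-negative cells they ran from -0.18 to 0.026 for Blvra, -0.24 to 0.24 for Blvrb, -0.11 to 0.26 for Ftl1, -0.021 to 0.13 for Hfe, -0.58 to 0.050 for Slc11a1, -0.21 to 0.052 for Slc11a2 and -0.0057 to 0.44 for Tfrc. Over both gates they ran from -0.094 to 0.0069 for Blvra, -0.0095 to 0.16 for Hfe, -0.22 to 0.092 for Slc11a1, -0.064 to 0.26 for Slc11a2 and -0.12 to 0.27 for Slc40a1. The interaction ran from -0.038 to 0.16 for Blvra, -0.077 to 0.30 for Ftl1, -0.15 to 0.19 for Hfe, -0.095 to 0.49 for Hmox1 and -0.28 to 0.16 for Tfrc.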
